A study of Mus musculus with 5 samples.

Results

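The genes described here are the ligands Csf1, Il34 and Csf2 and the receptor genes Csf1r, Csf2ra, Csf2rb and Csf3r, which are 7 of the 31053 genes counted in each of 5 single-cell libraries of mouse heart. They were taken by symbol, and all 7 had at least 1 UMI (unique molecular identifier, which counts a captured RNA molecule once) in every library. Their UMIs were read in 6 classes of cell barcodes, namely fibroblasts, endothelial cells, T cells, macrophages, monocytes and neutrophils. A barcode entered a class when it had at least 3 UMIs of that class's marker genes, over at least 2 markers. These also had to make at least 75% of its UMIs over all markers. All markers means those of the 6 classes and of B, natural killer, mural, dendritic, mast or basophil and Schwann cells. The monocyte markers Ly6c2 and Plac8 were not counted against the T cell gate. None of the 7 genes was a marker.

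The study compared hearts of mice with and without a myocarditis that models the heart inflammation caused by immune checkpoint inhibitors. Control mice were Ctla4+/+Pdcd1-/- (4 mice, libraries control 1 and control 2) and diseased mice were Ctla4+/-Pdcd1-/- (10 mice, libraries disease 3, disease 4 and disease 5). Both groups therefore lacked Pdcd1, the gene of the inhibitory receptor PD-1, so that neither was wild type, and the diseased mice had in addition lost 1 of 2 copies of Ctla4, the gene of a further inhibitory receptor. The genotype field of single samples reads Pdcd2 or Pdcd3 in places where the description of the whole series reads Pdcd1, and the latter was followed. Digested hearts were pooled, and DRAQ5+DAPI- cells, which carry a DNA stain and exclude a dead-cell stain, were sorted from them. Which mice went into which library, their age and any batch are not given in the sources used here, so that p-values measure the spread between libraries, which may be technical.

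The libraries held 6465 to 11358 barcodes and 24991704 to 55053988 UMIs. Fibroblast barcodes numbered 1380 to 3100 per library, endothelial 1771 to 2803 and macrophage 460 to 1375. T cells numbered 506 and 85 in the control libraries against 120, 2136 and 541 in the disease libraries, so that disease 3 lay below control 1. Monocytes (9 to 53 per library) and neutrophils (18 to 56) were too few for the edgeR fit of disease within the class, and in them disease was compared only by the share of cells with a UMI. Markers that the gates did not use lay in the named classes: Col3a1 was at 1447 to 2682 CPM in fibroblasts (CPM, counts per 10 to the sixth UMIs of the class in that library), Pecam1 at 752 to 972 in endothelial cells, Lck at 311 to 599 in T cells, Lyz2 at 14151 to 16903 in macrophages and S100a8 at 39708 to 78593 in neutrophils. Ctla4 in T cells was at 434 and 79.0 CPM in control hearts, against 146, 644 and 552 CPM in diseased hearts, with control 1 among them. Pdcd1, the gene deleted in both groups, still had UMIs in T cells, at 591, 81.7, 262, 1075 and 843 CPM. The deleted part of each gene is not given in the sources used here, so these 5′ reads do not check the genotypes. Pairs of libraries shared 1.33 to 1.90% of the smaller library's barcodes. Of the genes called between disease and control, nearly all were lower in disease: 1667 of 1714 in fibroblasts and 1478 of 1516 in endothelial cells. Called falls of the 7 genes are also given after removal of the trend of counts on the GC content of the first 300 bases of the transcript. This left 1432 and 1335 genes called, of which 1307 and 1209 were still lower. Most of the imbalance thus stayed.

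Colony-stimulating factors are secreted proteins first known for making bone marrow cells form colonies of macrophages and granulocytes in culture. Csf1 and Il34 both bind the receptor tyrosine kinase Csf1r, which macrophages need to live and divide, and fibroblasts and vessel walls are known sources of Csf1 in tissues. Csf2 binds a heterodimer of a specific chain, Csf2ra, and the signalling chain Csf2rb, which is shared with the receptors for Il3 and Il5, and Csf3r is the receptor for the neutrophil factor Csf3.

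On GRCm38, Csf1 (ENSMUSG00000014599) lies at chr3:107741048-107760469, Csf2ra (ENSMUSG00000059326) at chr19:61223957-61228429 and Il34 (ENSMUSG00000031750) at chr8:110741829-110805924, all on the minus strand like Csf2 (ENSMUSG00000018916, chr11:54247271-54249667), and Csf2rb (ENSMUSG00000071713) at chr15:78325752-78353847 and Csf3r (ENSMUSG00000028859) at chr4:126024550-126044440 on the plus strand. The promoters of Csf1 and Csf2ra are shown because these were the genes that were lower in disease. Both are RefSeq windows of GRCm38.p6 from 250 bases before the transcription start to 50 bases from it, printed 5′ to 3′ on the gene's strand, which is the minus strand for both. The Csf1 window is chr3:107760420-107760719 and the Csf2ra window is chr19:61228369-61228668.
Csf1: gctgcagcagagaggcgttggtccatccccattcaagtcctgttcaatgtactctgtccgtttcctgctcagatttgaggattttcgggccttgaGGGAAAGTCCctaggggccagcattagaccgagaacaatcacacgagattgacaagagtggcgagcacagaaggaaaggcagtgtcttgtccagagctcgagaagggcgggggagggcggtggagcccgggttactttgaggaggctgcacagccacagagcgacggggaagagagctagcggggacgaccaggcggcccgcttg
Csf2ra: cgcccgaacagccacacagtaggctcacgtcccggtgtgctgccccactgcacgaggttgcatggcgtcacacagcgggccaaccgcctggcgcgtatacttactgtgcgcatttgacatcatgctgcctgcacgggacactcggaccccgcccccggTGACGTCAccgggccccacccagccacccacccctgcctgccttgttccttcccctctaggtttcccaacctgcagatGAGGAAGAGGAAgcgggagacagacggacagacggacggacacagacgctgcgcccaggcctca
Capitals mark matches, on either strand, to motifs chosen after the windows had been seen. In Csf1 this is GGGAA, 3 bases of any kind and CC, a form of the NF-kappaB motif, 155 bases before the start. In Csf2ra these are TGACGTCA, the CREB motif, and 2 adjoining copies of GAGGAA, the core bound by the myeloid factor PU.1. The NF-kappaB form is present in 5.781% of the 32851 promoters of the same length, TGACGTCA in 1.79% and GAGGAA in 28.28%, and no match is shared by both windows. G and C make 58.67% of the Csf1 window and 65.33% of the Csf2ra window, against a median of 52.7% over all promoters.

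Of the 8996 Csf1 UMIs, 67.3% were in fibroblasts and 22.5% in endothelial cells, while 93.3% of the 27023 Csf1r UMIs were in macrophages. Macrophages also held 75.6% of the 7714 Csf2ra UMIs, 47.8% of the 3966 Csf2rb UMIs and 50.9% of the 1429 Csf3r UMIs. Neutrophils, with 160 barcodes in all, held 34.1% of the Csf3r UMIs. The order turned in control 2, where macrophages held 17.4% and neutrophils 61.5%, against 51.9 to 58.2% and 26.8 to 35.4% in the other 4 libraries. These shares depend on how many barcodes of each class were sorted, and the levels per class follow.

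**Figure D1:**
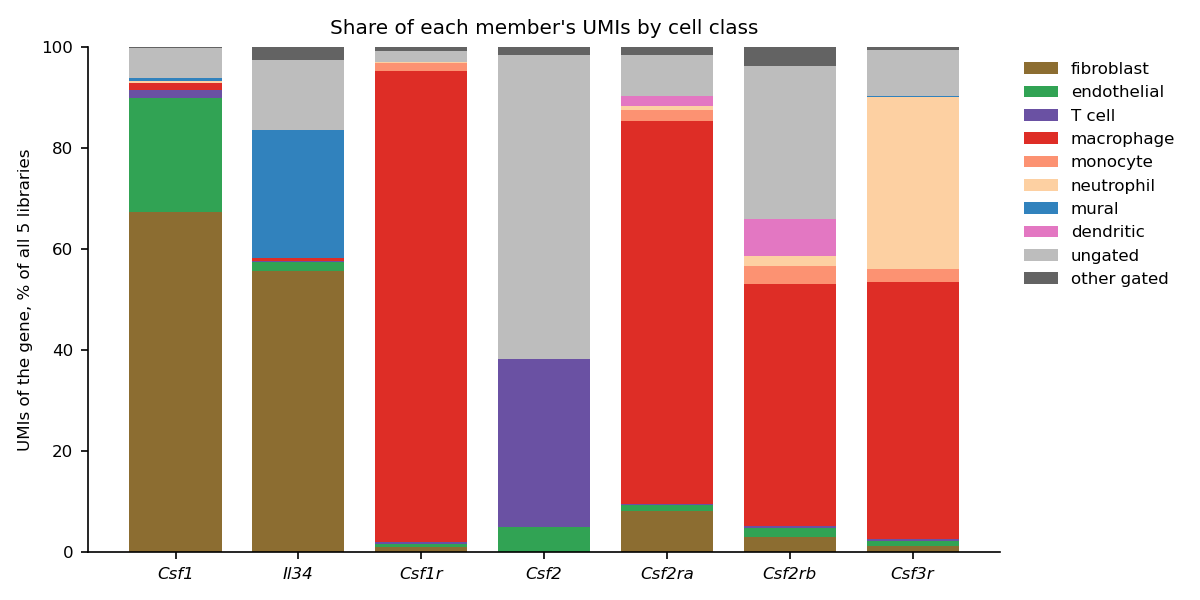
Share of each gene's UMIs (percent, 5 libraries together, 1 bar per gene) that lay in each cell class, with colours for the 6 classes, mural and dendritic barcodes, barcodes in no gate (ungated) and the remaining gated barcodes. Fibroblasts make 67.3% of the Csf1 bar, macrophages 93.3% of the Csf1r bar and ungated barcodes 60% of the Csf2 bar.

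Csf1 was carried by fibroblasts and endothelial cells and was lower in both in the diseased hearts. In fibroblasts it was at 115 and 115 CPM in control 1 and control 2 and at 71.6, 83.4 and 72.4 CPM in disease 3, disease 4 and disease 5. All disease libraries lay below both controls, and groups that do not overlap were found for 49.9% of all fibroblast genes tested. Csf1 fell by 0.65 on the log2 scale (SE 0.11, edgeR adjusted p = 0.0186). Csf1 was 1 of 2 genes called, both lower, of the 5 of the 7 that passed the filter on low counts in fibroblasts, where 12.8% of all 13421 genes tested were called in either direction, 12.4% lower and 0.35% higher. Without control 1, control 2 or disease 5 the edgeR adjusted p was 0.108, 0.103 and 0.0983, and with the GC trend removed the change was -0.40 (adjusted p = 0.164). The first 300 bases of Csf1 transcripts hold 61.8% G and C, above 86.28% of the genes counted.

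In endothelial cells Csf1 was at 75.3 and 62.3 CPM in control hearts, against 33.6, 46.0 and 42.3 CPM in diseased hearts. The groups again did not overlap, which held for 50% of the endothelial genes tested. Csf1 fell by 0.83 (log2, SE 0.16, edgeR adjusted p = 0.0228) and was the single gene called of 4 tested, against 12.3% of 12358 genes in either direction, 12% lower and 0.307% higher. The adjusted p was 0.127 without control 1, 0.0677 without control 2, 0.107 without disease 5 and 0.127 with the GC trend removed (change -0.60). The change in fibroblasts minus that in endothelial cells was 0.33 (SE 0.12, edgeR adjusted p = 0.238, with 0.224% of genes called), so a difference between the classes was not shown.

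The share of cells with a Csf1 UMI moved with the level. After each cell was thinned to 1000 UMIs, 11.9% ± 0.027 of control fibroblasts (SD, n = 2) and 7.41% ± 0.99 of disease fibroblasts (SD, n = 3) had one, an exact permutation p of 0.1, two-sided and the smallest that 5 libraries allow (0.42 after adjustment over the 42 shares tested). Without thinning these were 44.7% ± 0.39 and 32.6% ± 2.3, and without doublet removal, with cells thinned anew, 10.4% ± 1.2 and 7.74% ± 0.36 (p = 0.1, exact). Thinned macrophages, which carry little Csf1, had 0.854% ± 0.37 and 0.402% ± 0.041 (0.593% ± 0.53 and 0.393% ± 0.14 without doublet removal), at median depths of 5211 to 7238 UMIs per barcode against 5450 to 6219 in fibroblasts.

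Neutrophil Csf1 rested on 28 UMIs in all. The 5 libraries gave 136, 101, 50.5, 96.3 and 0 CPM, from 7, 9, 2, 10 and 0 UMIs. Fibroblasts exceeded endothelial cells by 0.97 (log2, SE 0.14, edgeR adjusted p = 2.85e-07, libraries as blocks), while neutrophils were not distinguished from either (fibroblasts over neutrophils 0.24, SE 0.34, adjusted p = 0.569; endothelial cells over neutrophils -0.73, SE 0.37, adjusted p = 0.105). T cells followed at 0 to 10.6 CPM and macrophages at 3.1004 to 7.04 CPM, with T cells above macrophages by 1.24 (SE 0.26, adjusted p = 8.78e-05). Monocytes had 0 UMIs in all 5 libraries, where 3 UMIs would have been 8.68 to 62.9 CPM. Of the 15 pairs of classes 12 were called for Csf1, with 16.5 to 75.9% of 13195 genes called per pair. The share of all genes called was 65% for fibroblasts over endothelial cells, 75.9% over T cells, 74.2% over macrophages, 52.9% over monocytes and 48.4% over neutrophils. For endothelial cells it was 71.7% over T cells, 73.7% over macrophages, 49.2% over monocytes and 46% over neutrophils. Between T cells and macrophages, monocytes and neutrophils it was 66.8, 39.5 and 38.9%, between macrophages and monocytes 20.7%, between macrophages and neutrophils 30.7% and between monocytes and neutrophils 16.5%. The number of pairs called was 4 for Il34, 12 for Csf1r and 11 each for Csf2ra, Csf2rb and Csf3r. Over the 30 sums of a class in a library, the genes most like Csf1 by Pearson's r of log2(CPM + 1) were Ifit3b (0.887), Pik3ip1 (0.858) and Optn (0.847), and sums of 1 library share its cells and depth.

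**Figure D2:**
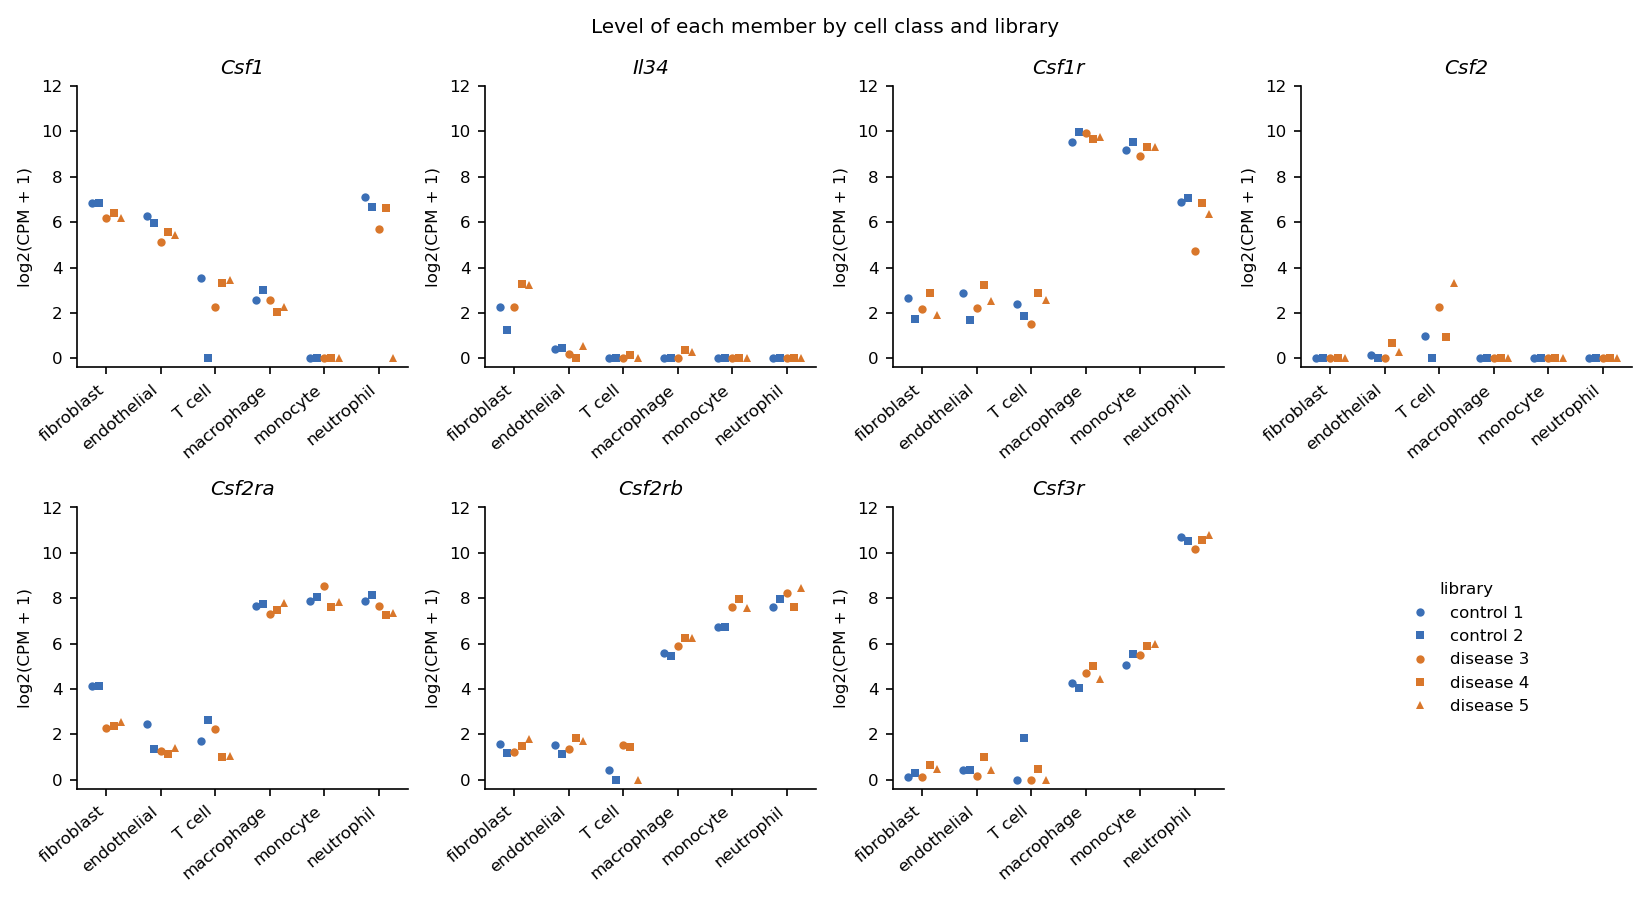
Level of each gene, as log2(CPM + 1), in the 6 cell classes (x axis), with 1 point per library, blue for control and orange for disease. Csf1 is high in fibroblasts and endothelial cells, and its neutrophil points rest on 28 UMIs in all (0 in disease 5). Csf1r is high in macrophages and monocytes, and Csf3r in neutrophils, where all 5 libraries lie above 1160 CPM.

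Il34, the second ligand of Csf1r, had a higher level in mural cells (pericytes and smooth muscle of vessels) than in any of the 6 classes. Of its 624 UMIs, however, 55.8% were in the more numerous fibroblasts and 25.3% in mural barcodes. In control 2 the order turned, with 18.75% in fibroblasts and 46.9% in mural barcodes. Among the 6, fibroblasts held it at 3.76 and 1.39 CPM in control hearts, against 3.84, 8.77 and 8.45 CPM in diseased hearts. The disease libraries lay above the controls, and disease 3 hardly above control 1. The fitted difference was 1.32 (log2, SE 0.54, edgeR adjusted p = 0.187), which did not pass, and its range was 0.83 without control 2 to 2.33 without control 1. Fibroblasts exceeded endothelial cells by 4.10 (SE 0.37, adjusted p = 7.21e-11). Macrophages held 0 to 0.274 CPM, T cells 0 to 0.101 CPM, and monocytes and neutrophils 0 UMIs.

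Mural barcodes, 40 to 95 per library, were described after their values had been seen. They held Il34 at 74.6 and 76.2 CPM in control hearts, against 83.6, 119 and 104 CPM in diseased hearts, from 18 to 41 UMIs each. Every library was above 74 CPM in mural cells and below 9 CPM in fibroblasts. Fibroblasts were 3.95 lower than mural cells on the log2 scale (fitted -3.95, SE 0.25, edgeR adjusted p = 7.89e-16), a pair in which 40.8% of genes were called. Schwann-type barcodes, which carry myelin genes, held it at 67.5, 47.4, 85.1, 120 and 72.1 CPM from 2 to 5 UMIs each. The genes most like Il34 over the 30 sums were Cxcl5 (r = 0.964), Ptx3 (0.964) and Vegfd (0.947), with Il34 UMIs in 12 of the 30 sums. These sums leave out mural and Schwann-type barcodes, so the 3 genes do not describe Il34 in mural cells. Il34 overlaps the antisense genes Gm15894 and Gm15895, and since the sources used here do not state whether strand was counted, their reads may not be separable.

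**Figure D3:**
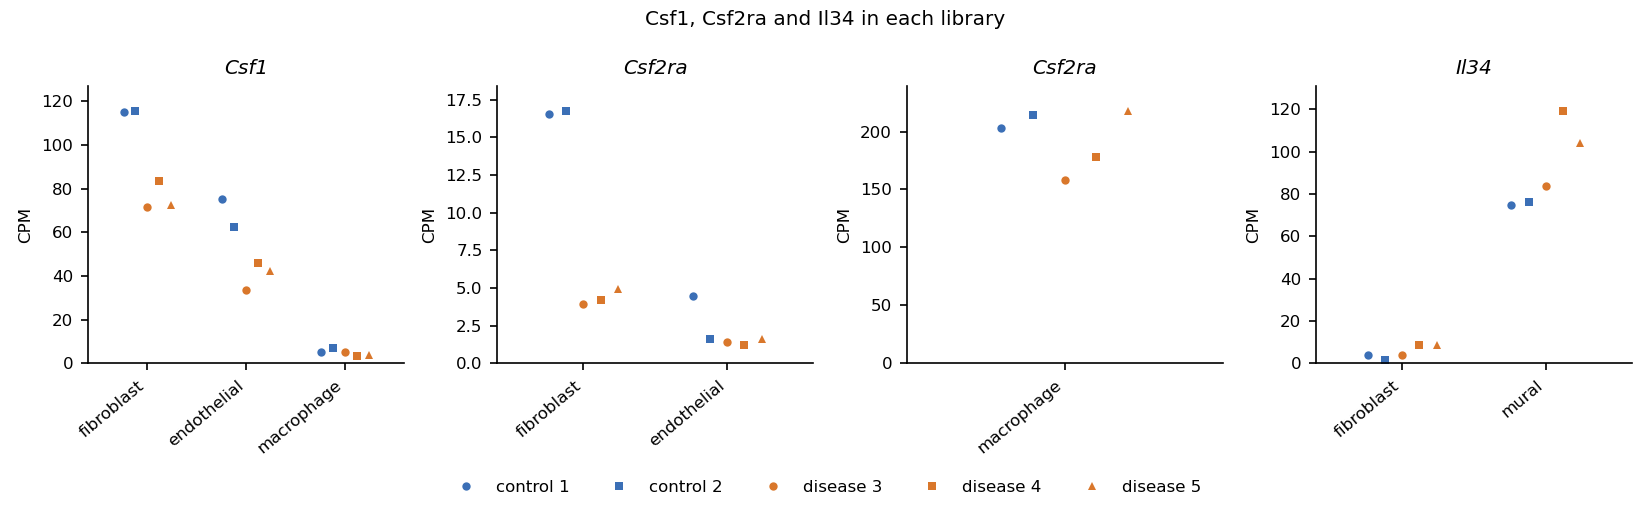
Csf1, Csf2ra and Il34 in each library (CPM, linear axes from 0, 1 point per library, blue for control and orange for disease). Csf1 in fibroblasts lies at 115 in both controls and at 71.6 to 83.4 in disease, Csf2ra in fibroblasts at 16.6 and 16.7 against 3.94 to 4.91, and Il34 in mural cells above fibroblasts in every library.

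Csf1r marked macrophages and monocytes, and its level in macrophages was not shown to differ between disease and control. In macrophages it was at 741 and 995 CPM in control hearts, against 971, 815 and 862 CPM in diseased hearts. The disease libraries lay between the controls. The fitted difference was 0.14 (log2, SE 0.20, edgeR adjusted p = 0.732). With each cell thinned to 1000 UMIs, 57.6% ± 6.2 of control macrophages (SD, n = 2) and 61.7% ± 2.1 of disease macrophages (SD, n = 3) had a Csf1r UMI (exact permutation p = 0.4), and 60.4% ± 6.1 and 60.8% ± 4.5 without doublet removal (p = 1).

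Monocytes held Csf1r at 584, 730.2, 487, 625 and 629 CPM in the 5 libraries. Macrophages exceeded them by 0.81 (SE 0.21, edgeR adjusted p = 0.00417), and monocytes exceeded neutrophils, at 25.2 to 135 CPM, by 2.44 (SE 0.33, adjusted p = 4.26e-07). Fibroblasts, endothelial cells and T cells lay at 1.87 to 8.50 CPM and were not distinguished from each other (adjusted p of 0.286 to 0.625 in the 3 pairs). In fibroblasts there were 40.8 to 66.4 Csf1r UMIs per 1000 UMIs of the C1q genes, which macrophages make. In macrophages there were 33.7 to 61.7, so the ranges were close. The C1q genes are macrophage gate markers, so these ratios are not independent of the gates. The genes most like Csf1r over the 30 sums were Lyz2 (r = 0.988), Clec12a (0.973) and Cd68 (0.967), all myeloid genes. Csf1r overlaps Hmgxb3 on the other strand.

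Csf2, the ligand of the Csf2 receptor, was rare: 120 UMIs in 42 barcodes over the 5 libraries. T cells held 3 and 0 UMIs in control hearts and 2, 9 and 26 in diseased hearts, and 22 of the 26 in disease 5 came from 1 barcode. The levels, 0.996, 0, 3.74, 0.910 and 9.13 CPM, overlapped between the groups. The fitted difference was 2.29 (log2, SE 1.45, edgeR adjusted p = 0.534), and at a gate purity of 50% it was -2.25, so that the direction depends on the gate. Fibroblasts, macrophages, monocytes and neutrophils had 0 Csf2 UMIs in every library.

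Over the 5 libraries together, 72 Csf2 UMIs or 60% lay in 21 barcodes that entered no gate, with 12, 22, 19, 14 and 5 UMIs in the 5 libraries and up to 20 in 1 barcode. The order turned in disease 5, where T cells held 78.8% of the Csf2 UMIs and ungated barcodes 15.2%. Of the 21 ungated barcodes with Csf2, 14 had a UMI of Gata3, 9 of Il1rl1 and 9 of Areg, genes known from group 2 innate lymphoid cells among others. Xcl1 had a UMI in 8 and Ncr1 in 5, genes known from natural killer cells among others, Il5 in 2, and 0 had a UMI of Cd3e, a chain of the T cell receptor complex. Of the 4345 other ungated barcodes, 4.70% had Gata3, 2.07% Il1rl1, 1.40% Areg, 3.27% Xcl1, 2.99% Ncr1, 0.138% Il5 and 11.5% Cd3e. Of the 17 T cell barcodes with Csf2, 3 had Gata3, 1 Il1rl1, 1 Areg, 9 Xcl1, 1 Ncr1 and 1 Il5, so Xcl1 was not particular to the ungated ones. Ncr1 counted against every gate and Cd3e is a T cell gate marker, so their counts depend on the gates. The companion genes were chosen after the values had been seen, and the ungated barcodes were not clustered or named. Csf2 overlaps the antisense gene Gm12223.

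Csf2ra, the chain that binds Csf2, was a myeloid gene with a lower level in fibroblasts, and in fibroblasts it was lower in diseased than in control hearts. In fibroblasts it was at 16.6 and 16.7 CPM in control hearts (335 and 145 UMIs), against 3.94, 4.22 and 4.91 CPM in diseased hearts (41, 52 and 65 UMIs). The lowest control was more than 3 times the highest disease library. Csf2ra fell by 1.97 (log2, SE 0.15, edgeR adjusted p = 0.00105). It also passed without each library in turn (adjusted p of 0.00208 to 0.0148) and with the GC trend removed, where the change was -1.54 (adjusted p = 0.00338). The first 300 bases of its transcripts hold 67.3% G and C, above 95.48% of the genes counted. The share of thinned fibroblasts with a Csf2ra UMI was 1.74% ± 0.13 (SD, n = 2) in control and 0.374% ± 0.11 (SD, n = 3) in disease (exact permutation p = 0.1), and 9.23% ± 0.45 and 2.51% ± 0.38 without thinning.

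The ratio to macrophage RNA was also taken for Csf2ra. Fibroblasts had 131 and 482 Csf2ra UMIs per 1000 C1q UMIs in control hearts and 53.5, 27.2 and 76.3 in diseased hearts, while macrophages had 7.37 to 13.3. Since C1q UMIs count against the fibroblast gate and for the macrophage gate, the gates alone lower C1q in fibroblasts and raise it in macrophages. The contrast between the classes is therefore not independent of the gates. Ptprc, a marker of all leukocytes, was at 9.94 and 1.85 CPM in control fibroblasts and at 3.27, 21.0 and 7.47 CPM in disease fibroblasts. The part of leukocyte RNA in the fibroblast Csf2ra level was not tested.

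Macrophages held Csf2ra at 203 and 215 CPM in control hearts, against 158, 178 and 218 CPM in diseased hearts. The groups overlapped, and the fitted difference was -0.06 (log2, SE 0.23, edgeR adjusted p = 0.907), which turned to 0.35 (adjusted p = 0.539) with the GC trend removed. The change in fibroblasts minus the change in macrophages was -1.94 (SE 0.20, edgeR adjusted p = 0.0158). It was the single call among 33 such differences tested for the 7 genes, in a comparison where 8 of 14160 genes (0.0565%) were called. That call was lost without control 1 (adjusted p = 0.391), control 2 (0.505) or disease 5 (0.0948) and with the GC trend removed (difference -1.79, adjusted p = 0.0517). The other pairs of classes had 0.224% (fibroblasts and endothelial cells), 0.0143% (fibroblasts and T cells), 0.023% (endothelial and T cells), 0.015% (endothelial cells and macrophages) and 0.00875% (T cells and macrophages) of genes called. Endothelial cells, at 4.44, 1.60, 1.42, 1.21 and 1.62 CPM, overlapped between the groups (fitted -1.14, SE 0.49, adjusted p = 0.229), and the fibroblast change minus the endothelial change was -0.67 (SE 0.45, adjusted p = 0.492).

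Between classes, macrophages, monocytes (194 to 375 CPM) and neutrophils (154 to 280.3 CPM) were not distinguished for Csf2ra (adjusted p of 0.633 to 0.862 in the 3 pairs). Macrophages exceeded fibroblasts by 4.52 (fitted fibroblasts over macrophages -4.52, SE 0.23, edgeR adjusted p = 2.14e-19), and fibroblasts exceeded endothelial cells by 2.18 (SE 0.30, adjusted p = 8.03e-08). Dendritic barcodes, 2 to 13 per library, held it at 165 to 393 CPM. The genes most like Csf2ra over the 30 sums were Plbd1 (r = 0.954), Cd300a (0.954) and Plekhm3 (0.953).

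**Figure D4:**
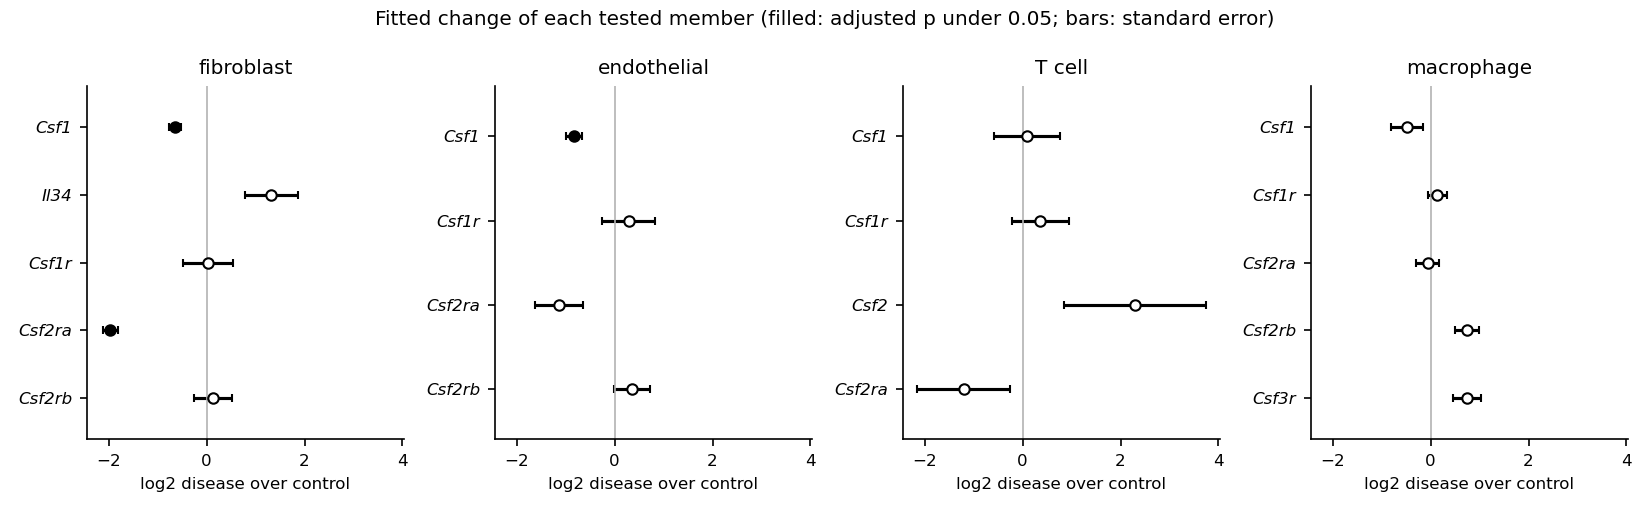
Fitted log2 difference, disease over control (x axis), of each of the 7 genes that passed the filter on low counts in 4 classes, with bars of 1 standard error and filled points for an edgeR adjusted p under 0.05. Filled points are Csf1 in fibroblasts (-0.65) and endothelial cells (-0.83) and Csf2ra in fibroblasts (-1.97).

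Csf2rb, the chain that signals for Csf2, was higher in monocytes and neutrophils than in macrophages. Its values are uncertain to the extent that reads of the near-identical gene Csf2rb2 could be counted for it. Macrophages held Csf2rb at 47.8 and 42.3 CPM in control hearts, against 59.0, 74.8 and 75.4 CPM in diseased hearts. All disease libraries lay above the controls, and 35.5% of macrophage genes had groups that did not overlap. The fitted difference was 0.74 (log2, SE 0.24, edgeR adjusted p = 0.157), which did not pass. Csf2rb2 in the same cells was at 20.1, 19.5, 25.4, 34.2 and 33.1 CPM.

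Monocytes held Csf2rb at 106, 104, 195, 252 and 189 CPM, from 10, 9, 26, 87 and 9 UMIs, with the controls lowest. Neutrophils held it at 194, 247, 303, 193 and 347 CPM, with overlapping groups. The share of thinned cells with a Csf2rb UMI was 5.56% ± 7.9 in control and 18.8% ± 3.6 in disease monocytes, and 21.2% ± 0.81 and 29.5% ± 3.3 in neutrophils (SD, n = 2 and n = 3, exact permutation p = 0.1 and adjusted p = 0.42 in both). Without thinning these were 30.95% ± 3.4 and 64.9% ± 4.3 in monocytes and 30.8% ± 2.4 and 35.5% ± 7.6 in neutrophils. The monocyte difference of 13.3 percentage points was 7.46 without doublet removal (exact permutation p = 0.5), and the neutrophil difference of 8.36 was 4.52 at a gate purity of 90% (exact permutation p = 0.9). Macrophages were below monocytes by 1.37 (fitted -1.37, SE 0.20, edgeR adjusted p = 2.55e-06), and monocytes over neutrophils was -0.54 (SE 0.26, adjusted p = 0.168). Dendritic barcodes held it at 329 to 508 CPM from 22 to 91 UMIs each. Fibroblasts, endothelial cells and T cells lay at 0 to 2.63 CPM. The genes most like Csf2rb were Il1b (r = 0.987), Cd300a (0.984) and Alox5ap (0.983).

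Csf3r was a neutrophil gene. Neutrophils held it at 1650.3 and 1469 CPM in control hearts, against 1161, 1532 and 1786 CPM in diseased hearts, from 46 to 159 UMIs each. The groups overlapped, and the class was too small for the edgeR fit of disease. With each cell thinned to 1000 UMIs, 71.5% ± 2.8 of control neutrophils (SD, n = 2) and 83.4% ± 7.0 of disease neutrophils (SD, n = 3) had a Csf3r UMI (exact permutation p = 0.2, adjusted p = 0.764), and 86.2% ± 1.8 and 95.8% ± 7.2 without thinning. Without doublet removal the thinned shares were 74.1% ± 0.26 and 75.9% ± 3.9 (exact permutation p = 0.5), and at a gate purity of 90% they were 60.4% ± 15 and 78.6% ± 8.0 (exact permutation p = 0.3). Neutrophils exceeded monocytes, at 31.9 to 62.9 CPM (fitted monocytes over neutrophils -5.11, SE 0.24, edgeR adjusted p = 1.36e-17), and macrophages over monocytes was -0.81 (SE 0.32, adjusted p = 0.0679). Fibroblasts, endothelial cells and T cells held 0 to 2.63 CPM. The genes most like it were Clec4d (r = 0.987), Hcar2 (0.982) and Cd300lf (0.975), of which Clec4d and Hcar2 are known from neutrophils.

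Macrophages also carried Csf3r, at 18.1 and 15.3 CPM in control hearts and 25.4, 31.6 and 20.9 CPM in diseased hearts. The disease libraries lay above the controls. The fitted difference was 0.74 (log2, SE 0.28, edgeR adjusted p = 0.237). In macrophages edgeR thus called 0 of the 5 genes tested, where 6.43% of 11079 genes were called (6.31% lower and 0.117% higher), and DESeq2 also called 0, while 2 of the 5, Csf2rb and Csf3r, had an unadjusted p under 0.05. In T cells edgeR and DESeq2 each called 0 of 4 tested, of which 0 had an unadjusted p under 0.05 in edgeR, against 4.92% of 9657 genes (4.91% lower and 0.0104% higher), and the groups of 31.7% of T cell genes did not overlap.

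Within macrophages, every receptor was present with and without each set of markers, at levels that differed. Macrophages with a UMI of Lyve1, Timd4, Folr2 or Cd163, markers of resident cells, made 59.6 to 81.8% of the macrophages per library and had more Csf1r and less Csf2ra and Csf2rb than the others. Csf1r was at 856, 1029, 1026, 929 and 953 CPM in them and at 489.98, 828, 685, 665 and 670.05 CPM in the others, higher in every library (log2 difference 0.39, SE 0.09, edgeR adjusted p = 0.00313, libraries as blocks). Csf2ra was lower in every library (-0.56, SE 0.09, adjusted p = 0.000255), and so was Csf2rb (-1.03, SE 0.11, adjusted p = 1.3e-06). For Csf3r the difference was -0.51 (SE 0.19, adjusted p = 0.0528), with disease 3 opposite to the other 4 libraries; it passed without disease 3 (adjusted p = 0.0022). Of the 5 genes tested 3 were called, and of all genes 23.9%. Without the library as a block the adjusted p was 0.213 for Csf1r and 0.0685 for Csf2ra. Resident-marker cells had 5367 to 7591 UMIs per barcode and the others 4731 to 8603.

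Macrophages with a UMI of Cxcl9, an interferon-induced chemokine, or Fcgr4, an activating Fc receptor, were not a separate set of cells, since 52.0 to 73.2% of them per library also had a resident marker. Csf1r was at 599.7, 873, 779, 758 and 662 CPM in them and at 935, 1033, 1054, 1159.9 and 1123 CPM in the others, lower in every library (-0.34, SE 0.09, edgeR adjusted p = 0.0113). Csf2rb was at 48.6, 76.4, 88.5, 79.997 and 94.2 CPM in them and at 46.8, 31.6, 46.2, 43.1 and 50.7 CPM in the others (0.95, SE 0.16, adjusted p = 0.000656). Csf2ra (0.46, SE 0.10, adjusted p = 0.00433) and Csf3r (0.84, SE 0.17, adjusted p = 0.00262) were also higher, Csf3r in all but control 2, so that 4 of 5 genes were called, against 27.8% of all genes. Without the block the adjusted p was 0.147 for Csf1r, 0.0945 for Csf2ra and 0.0542 for Csf3r, and with it Csf1r missed the threshold without control 1 (0.0665) or disease 5 (0.0555). These cells had 7024 to 9811 UMIs per barcode and the others 4067 to 5582, and the part of depth in the difference was not tested. They made 43.9 and 17.8% of the macrophages in control hearts and 22.8, 72.2 and 41.4% in diseased hearts, which overlaps between the groups, and their part in the Csf2rb level of whole macrophages was not tested.

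**Figure D5:**
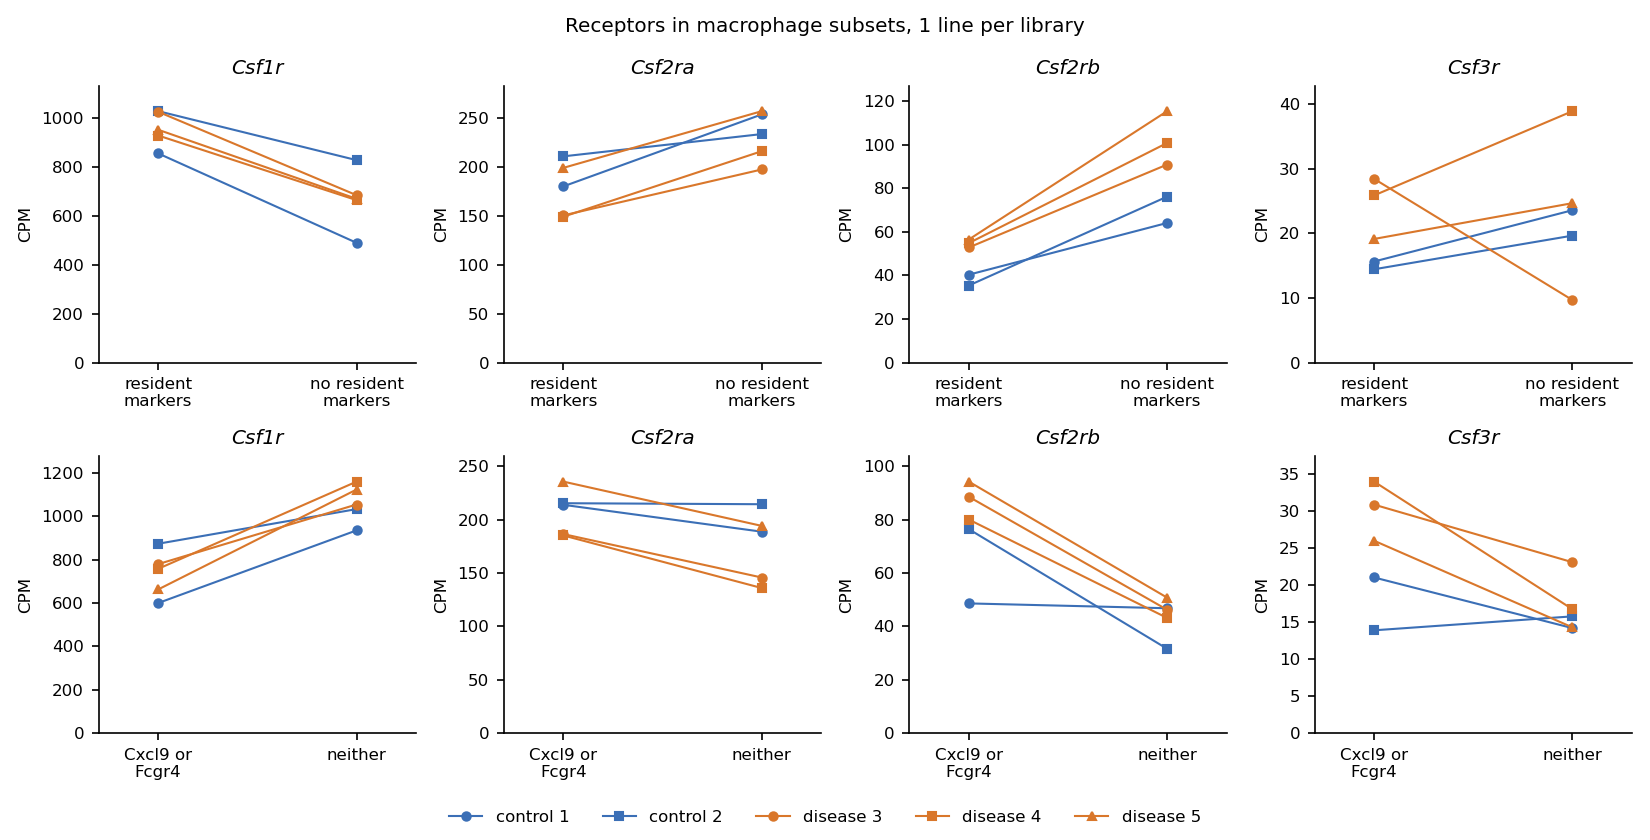
Csf1r, Csf2ra, Csf2rb and Csf3r (CPM, axes from 0) in macrophages with and without resident markers (upper row) and with and without Cxcl9 or Fcgr4 (lower row), with 1 line per library, blue for control and orange for disease. In all 5 libraries Csf1r is higher and Csf2rb lower in resident-marker cells than in the others.

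The rest of the pathway was read from a list of 33 genes: other ligands and receptors, signal carriers, transcription factors and genes known to respond to Csf2. In fibroblasts 4 of the 23 tested were lower and 0 higher, where 12.4% of all genes were called lower. In endothelial cells 3 of 22 were lower and 0 higher, beside 12% of all genes, and in macrophages 1 of 22 lower and 0 higher, beside 6.31%, so these counts lay near the background. In T cells 0 of 20 were called in either direction by edgeR, beside 4.92% of all genes, and 4 had an unadjusted p under 0.05. DESeq2 called 1 list gene there, beside 490 of 10169 genes. The median log2 difference of the list was -0.25, -0.17, -0.09 and -0.24 in fibroblasts, endothelial cells, macrophages and T cells, against -0.01, -0.00, 0.03 and 0.07 over all genes tested. Il3ra, the chain that binds Il3 beside Csf2rb, was at 33.3 and 29.6 CPM in control fibroblasts and at 14.7, 11.5 and 17.1 CPM in disease fibroblasts. It fell in fibroblasts by 1.17 (SE 0.20, edgeR adjusted p = 0.0166), in endothelial cells by 1.20 (SE 0.25, adjusted p = 0.0342) and in macrophages by 1.27 (SE 0.21, adjusted p = 0.0179). The Il3ra call was lost without control 1 in all 3 classes (adjusted p of 0.115, 0.145 and 0.145 in the same order), without control 2 in fibroblasts (0.0803) and endothelial cells (0.175), and without disease 5 in endothelial cells (0.16) and macrophages (0.0938). Socs3, an inhibitor of cytokine signalling, was at 234 and 221 CPM in control fibroblasts and at 106, 89.0 and 109 CPM in disease fibroblasts. It fell in fibroblasts by 1.21 (SE 0.14, adjusted p = 0.00391) and in endothelial cells by 1.29 (SE 0.18, adjusted p = 0.00741), where the call was lost without control 1 (0.0533) or disease 5 (0.0561). Lyn, a Src-family kinase, fell by 0.82 (SE 0.19, adjusted p = 0.0471) in fibroblasts. Lyn missed the threshold without any 1 of the 5 libraries (adjusted p of 0.0524 to 0.223) and under 8 of 9 other settings, for example with DESeq2 (adjusted p = 0.054), and with the GC trend removed so did Il3ra in endothelial cells (0.0522) and macrophages (0.0692). Csf2ra, Il3ra, Socs3 and Lyn were all lower in fibroblasts, while Csf1r (0.02, SE 0.51, adjusted p = 0.981) and Csf2rb (0.13, SE 0.39, adjusted p = 0.857) were not called there.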

How the data were processed

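The deposited values are raw UMI counts per gene and barcode from Chromium 5′ libraries. Per the file headers the authors made them with Cell Ranger 3.1.0; the submitters' processing notes name Cell Ranger 3, Seurat 3 and the builds mm10 and GRCh38 without a role. Barcodes under 500 UMIs, under 200 genes or over 10% mitochondrial UMIs were left out. The highest doublet scores (scanpy 1.11.5) were removed at 0.8% per 1000 cells, a limit set after the automatic one had called almost none in control 2. Counts were summed per class and library, disease being tested in classes with at least 20 barcodes in every library, with edgeR 4.0.16 (quasi-likelihood, TMM scaling, filterByExpr, Benjamini-Hochberg adjustment over all genes, threshold 0.05) in R 4.3.3, libraries being blocks between classes and subsets. DESeq2 1.42.0, other scaling, gates and filters and leaving out each library were alternatives. On simulated fibroblast counts the fit recovered 49% of 2-fold and 100% of 4-fold changes. In macrophages it recovered 24% and 100%, and in T cells 5% and 67%. Recovery at the levels of the 7 genes was not tested separately. Intervals and floors cover counting error only, and a floor is 3 UMIs. All 7 genes are named, list genes where called, and for each gene the 3 most correlated genes with a mean of at least 5 CPM. The genes and lists were chosen with earlier results of these data known. RefSeq promoters were matched by symbol for 4 of the 7 genes; none was used for Il34, Csf1r and Csf2rb. Not every called list gene is reported here by name.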

Additional observations from a re-analysis of the deposited data

Results flagged for a closer look

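The disease effect on Csf2ra differed between fibroblasts and macrophages by a test of the difference itself. In fibroblasts the change was -1.97 (log2, SE 0.15) and in macrophages -0.06 (SE 0.23), and the fibroblast change minus the macrophage change was -1.94 (SE 0.20, edgeR adjusted p = 0.0158). The difference passed without disease 3 (adjusted p = 0.000958) and without disease 4 (0.000244), and it did not without control 1 (0.391), control 2 (0.505) or disease 5 (0.0948), nor with the GC trend removed (0.0517). No other pair of the 4 classes was called for Csf2ra, with differences of -0.67 for fibroblasts minus endothelial cells (SE 0.45, adjusted p = 0.492), -0.60 for fibroblasts minus T cells (SE 0.80, adjusted p = 1), -0.21 for endothelial minus T cells (SE 1.07, adjusted p = 1), -0.89 for endothelial cells minus macrophages (SE 0.44, adjusted p = 0.929) and -0.94 for T cells minus macrophages (SE 0.68, adjusted p = 0.901). Groups of 2 and 3 libraries were too small to look for a library far from the others.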

How the results depend on the processing

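With the GC trend removed, 1 of the 7 genes, Csf2ra, was called in fibroblasts (Csf1 was -0.40) and 0 in endothelial cells (Csf1 was -0.60), 2 list genes in fibroblasts and 0 in macrophages, 315 genes in T cells, Csf2ra in macrophages was 0.35, its fibroblast minus macrophage difference -1.79, and 0 such differences were called. Without a filter 1069 of 16614 T cell genes and 1304 of 18637 macrophage genes were called, with 7 and 3 list genes among them. DESeq2 called 490 of 10169 and 787 of 12133 genes there, with 1 and 3 list genes among them. At 50% purity Csf1r in fibroblasts was -0.14, Csf1 and Csf2 in T cells -0.17 and -2.25, and 1 T cell list gene was called; at 90% Csf1r in fibroblasts was -0.0047 and Csf3r in resident-marker macrophages -0.64. The cause was not tested.

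No paired analysis was possible because control and disease share no replicate numbers; within libraries, dropping the replicate block gave 0.36 (Csf1r) and -0.55 (Csf2ra) for resident markers and -0.31 (Csf1r), 0.46 (Csf2ra) and 0.87 (Csf3r) for Cxcl9 or Fcgr4.

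Leaving out 1 library gave 798 to 1809 genes called in fibroblasts, 752 to 1491 in endothelial cells, 1 to 451 in T cells (1 without disease 5) and 204 to 1020 in macrophages. Of the 7 genes 1 to 2 and 0 to 1 were called in fibroblasts and endothelial cells, of the list 1 to 5 in each, 0 to 2 in T cells and 0 to 2 in macrophages, and of the class differences 0 to 1. Csf1 ranged from -0.73 to -0.61 in fibroblasts, -0.96 to -0.69 in endothelial cells, -0.024 to 0.39 for their difference, -0.34 to 7.85 in T cells and -0.42 to 0.17 for resident markers. Csf1r ranged from -0.43 to 0.84 in fibroblasts, -0.27 to 1.23 in endothelial cells and -0.41 to -0.26 for Cxcl9 or Fcgr4. Csf2ra ranged from -0.19 to 0.035 in macrophages and -2.04 to -1.75 for its class difference. Csf2rb ranged from -0.14 to 0.56 in fibroblasts, Csf2rb2 from -0.14 to 0.55 there and -0.015 to 0.97 in endothelial cells, and Csf3r from -0.68 to -0.35 for resident markers. The share of macrophages with Csf1r differed by -0.302 to 8.47 percentage points and with Csf2rb by -0.201 to 2.03. Over all results, leaving out 1 library left direction and side of the threshold as they were in 274 cases. These include counts that stayed close and untested values that kept their sign, whatever their size. Leaving out 1 library lost the call in 28 cases, gained it in 1, turned the direction in 16 and moved a count in 32. For the other alternatives the numbers in the same order were 438, 20, 1, 5 and 13.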
